A study of Mus musculus with 18 samples.

Results

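The 10 genes described here encode transcription factors that decide which blood lineage a stem or progenitor cell enters: Spi1 (which encodes PU.1), Irf8, Gfi1, Gfi1b, Gata1, Gata2, Zfpm1 (which encodes the GATA cofactor FOG1), Tal1, Erg and Runx1. They were chosen by name, with earlier results of these data known, and are 10 of the 25601 names in each of 2 expression tables. All 10 had values, Spi1 under its older symbol Sfpi1. Levels come from RNA sequencing of LSK cells, the bone marrow fraction that is negative for lineage markers and positive for Sca1 and Kit and holds the stem cells and multipotent progenitors. All 18 libraries came from C57Bl/6 mice, and the labels name no engineered allele. Fresh libraries, 3 control and 3 irradiated, were each made from sorted LSK cells pooled from 3 mice. The 12 cultured libraries were each started from 200 LSK cells of 1 mouse, grown for 6 days in mouse stem cell factor, human Flt3 ligand, human IL-11 and human IL-6, and sorted once more for the LSK surface profile. They form 4 groups of 3, control and irradiated donors each in medium lacking or containing DL1. The name DL1 is the usual short name of the Notch ligand Delta-like 1. The labels do not say how DL1 was offered to the cells. Irradiated donors had received 2.5 Gy from a caesium source and recovered for 9 weeks or longer. Control libraries were grouped by their titles and by a condition given as normal, but their source field carries the same prefix, IRp, as that of the irradiated libraries. This conflict within the labels bears on each comparison of irradiated with control libraries. The labels do not say whether libraries of different groups came from the same mice, so p-values measure the spread between these libraries.

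These factors work as a network of partners and rivals. PU.1 and the GATA factors bind and restrain each other, PU.1 favouring granulocytes, macrophages and lymphoid cells, and GATA1 with FOG1 favouring erythroid cells and megakaryocytes. GFI1 and GFI1B are closely related zinc finger repressors, GFI1 acting in stem cells, granulocytes and lymphocytes and GFI1B in erythroid cells and megakaryocytes, and each can repress both genes. IRF8 is a partner of PU.1 that directs progenitors to monocytes and dendritic cells, while TAL1, ERG, RUNX1 and GATA2 sit together on the enhancers that maintain stem cells.

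The promoters of Gfi1, Gfi1b and Irf8 are printed as examples. Gfi1b was the factor called in fresh cells, and Gfi1 and Irf8 were called in both DL1 comparisons. Erg was also called in both, but its promoters are not printed. Each sequence is the 250 bases before a start of the gene in RefSeq (GRCm38.p6), read 5′ to 3′ along the gene's strand, with the match to a binding motif in capitals. They lie at chr5:107725806-107726055 (minus strand), chr2:28621983-28622232 (minus strand) and chr8:120736108-120736357 (plus strand).
Gfi1: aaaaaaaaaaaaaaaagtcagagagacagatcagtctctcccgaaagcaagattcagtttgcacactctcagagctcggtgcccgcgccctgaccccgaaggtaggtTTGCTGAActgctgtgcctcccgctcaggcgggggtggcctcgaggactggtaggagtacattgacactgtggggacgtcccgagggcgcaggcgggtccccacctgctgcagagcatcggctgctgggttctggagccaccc
Gfi1b: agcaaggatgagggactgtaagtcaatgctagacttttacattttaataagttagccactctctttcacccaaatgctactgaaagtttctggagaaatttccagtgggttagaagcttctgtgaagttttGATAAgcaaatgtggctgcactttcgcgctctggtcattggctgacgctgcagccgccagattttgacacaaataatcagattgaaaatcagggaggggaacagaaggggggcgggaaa
Irf8: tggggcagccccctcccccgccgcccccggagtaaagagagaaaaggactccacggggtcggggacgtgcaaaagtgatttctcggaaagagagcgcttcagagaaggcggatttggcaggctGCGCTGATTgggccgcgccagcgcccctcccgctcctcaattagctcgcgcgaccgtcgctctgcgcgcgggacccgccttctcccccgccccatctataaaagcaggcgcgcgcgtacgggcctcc
Gfi1 and Irf8 each had 2 windows, before different starts, and only window 1 is printed. Both strands were searched, and none of the capitals overlaps a match to another motif. A match to CAGNTG, an E-box of TAL1 partners, 42 bases before the start in the printed Gfi1 window, is not in capitals. In the Gfi1 promoter the capitals match TTGCNNAA, a core motif of the C/EBP factors, 143 bases before the start, and 9.56% of all 32851 promoter windows hold these letters. Window 2 of Gfi1 held 0 matches to them. The Gfi1b promoter holds GATAA, the core motif of GATA factors, 119 bases before the start, as 22.6% of windows do. The capitals in the Irf8 promoter match AATCNNNGC, the motif of GFI1 and GFI1B, on the other strand, 127 bases before the start, as 8.87% of windows do. Window 2 of Irf8 held 0 matches to this motif. TGGGAA, the core of the motif of RBPJ, through which Notch acts on DNA, is in 21.6% of windows and was found in a window of Zfpm1, Tal1, Erg and Irf8. For Irf8 it was in window 2, which is not printed. A match describes letters and does not show binding.

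Values are FPKM, fragments corrected for transcript length and sequencing depth as the authors deposited them, so that levels of different genes are set per length. Changes are log2 fold changes ± standard error of FPKM + 1 from limma with Benjamini-Hochberg adjusted p over all genes tested, called under 0.05, with n = 3 libraries a group. Fresh and cultured tables were normalized separately and were never tested against each other. Relative depth lay between 0.645 and 0.990 of the first control among the other fresh libraries and between 0.756 and 1.09 among the cultured ones, except irradiated replicate 2 with DL1 at 0.488. Among the LSK markers, Kit (34.3 to 39.0 FPKM as group means) and Ly6a (496 to 596) were well expressed in all 4 cultured groups, whereas the stem cell gene Procr had group means of at most 0.844 FPKM there, against 20.7 in fresh controls. The 6 B cell markers summed to 23.3 to 34.2 FPKM in fresh controls, 30.3 to 50.7 in fresh irradiated pools, where all 6 had a higher mean, and 8.53 to 15.3 in cultures, where Pax5 and Ebf1 were at 0 in every library of 3 groups. The 6 T cell markers summed to at most 11.1 FPKM in any library. The part of these cells in the factor levels was not tested. In bulk libraries, fewer cells of a type and less RNA per cell cannot be told apart.

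In freshly sorted LSK cells, Gfi1b, the erythroid and megakaryocyte repressor, was the 1 factor of 10 that rose after irradiation, in a comparison that called 0.101% of all genes. Its level was 12.4, 15.2 and 12.7 FPKM in the controls and 23.0, 24.4 and 25.6 in the irradiated pools. Every irradiated pool lay above every control, by 1.81-fold in the means (log2 change 0.81 ± 0.097, adjusted p = 0.0238). The call was lost without any single library except control replicate 2 (adjusted p from 0.0689 to 0.149), with no filter (0.117) and with the replicate block (0.0532), with the direction kept each time. All 10 factors had a higher mean in the irradiated pools, with a median log2 change of 0.26 against 0.0084 over all genes tested, and 5 had groups that did not overlap, all higher, as had 7.42% of genes.

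Gata1, Gata2 and Zfpm1 were also higher in mean in fresh irradiated pools, none of them past the test. Gata1, the erythroid and megakaryocyte master factor, stood at 4.19, 5.49 and 4.88 FPKM in controls and 7.33, 9.62 and 8.25 in irradiated pools. The groups did not overlap, with a log2 change of 0.68 ± 0.13 and an adjusted p of 0.168. Gata2, its counterpart in stem cells and mast cells, had 52.4, 52.9 and 60.2 FPKM in controls and 75.9, 69.4 and 68.3 in irradiated pools (0.36 ± 0.085, adjusted p = 0.318). Zfpm1 had 14.7, 12.9 and 15.1 FPKM against 17.3, 17.5 and 16.9 (0.26 ± 0.085, adjusted p = 0.531). Both sets of irradiated pools lay wholly above their controls. The summed FPKM of 6 megakaryocyte markers was also higher, from 42.2 to 71.7 in controls and from 82.0 to 142 in irradiated pools, while that of 6 erythroid markers went from 55.8 to 92.8 in controls and from 47.7 to 51.1 in irradiated pools, with no marker of either list at 0 throughout a group. The part of these cells in the factor levels was not tested.

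The remaining factors of fresh cells were not called either. The stem cell factor Erg had 59.6, 49.8 and 61.5 FPKM in controls and 73.9, 62.6 and 61.5 in irradiated pools, where the lowest irradiated pool (61.48) lay barely above the highest control (61.47). Its log2 change was 0.21 ± 0.11 with an adjusted p of 0.801. For Tal1 the controls ranged from 26.3 to 31.2 FPKM and the irradiated pools from 30.3 to 32.6, and for Runx1 from 43.2 to 47.7 and from 47.5 to 53.6. Spi1 ranged from 56.8 to 81.1 FPKM in controls and from 75.5 to 79.1 in irradiated pools, and Gfi1 from 11.6 to 13.8 and from 12.5 to 18.1. These 4 overlapped between the groups, with adjusted p of 0.801 or more.

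Irf8 varied more between replicates than between groups in fresh cells. It was at 5.12, 12.2 and 5.01 FPKM in controls and 6.47, 15.6 and 6.71 in irradiated pools. Replicate 2 was high in both groups, and the change of 0.33 ± 0.37 (adjusted p = 0.942) became -0.049 without irradiated replicate 2. The summed FPKM of 7 macrophage markers was highest in the same libraries, 52.8 in control replicate 2 and 80.9 in irradiated replicate 2, against 29.5 to 39.1 in the other 4. Its part in the Irf8 level was not tested.

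**Figure D1:**
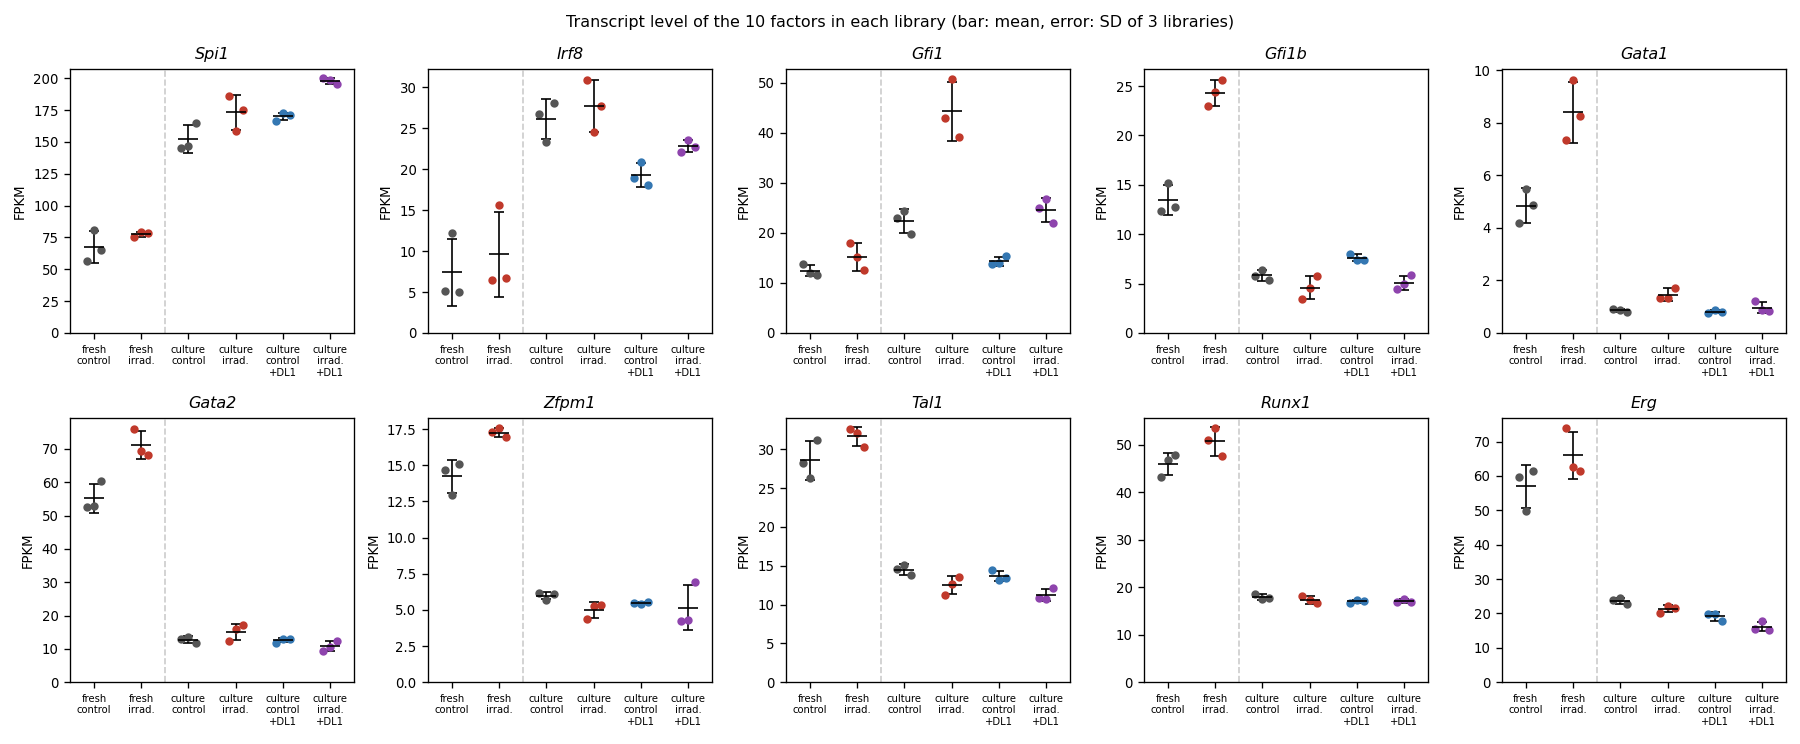
FPKM of each of the 10 factors in every library (points) of the 6 groups, with the mean (bar) and SD of 3 libraries (error bars); the fresh and cultured tables were normalized separately. Irradiated points of Gfi1b lie above the controls among fresh cells (23.0 to 25.6 against 12.4 to 15.2), and those of Gfi1 lie above the controls in culture (39.3 to 50.8 against 19.7 to 24.3).

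The order of the factors was not the same in the 2 tables, whose values are given side by side without a test. In fresh controls Spi1 led with 67.6 ± 12.3 FPKM (SD), followed by Erg with 57.0 ± 6.24, Gata2 with 55.2 ± 4.38, Runx1 with 45.9 ± 2.38 and Tal1 with 28.6 ± 2.48. Zfpm1 (14.2 ± 1.14), Gfi1b (13.4 ± 1.52), Gfi1 (12.5 ± 1.18), Irf8 (7.43 ± 4.10) and Gata1 (4.85 ± 0.652) came below. Neighbours overlapped in this order except Gata2 above Runx1, Runx1 above Tal1 and Tal1 above Zfpm1. In control cultures Spi1 stood at 152 ± 10.9 FPKM, apart from all others. Irf8 (26.1 ± 2.44), Erg (23.7 ± 0.884) and Gfi1 (22.3 ± 2.38) overlapped with their neighbours, and were followed without overlap by Runx1 (17.9 ± 0.623), Tal1 (14.5 ± 0.696) and Gata2 (12.8 ± 1.03). Zfpm1 (5.98 ± 0.257) and Gfi1b (5.84 ± 0.548) overlapped, and Gata1 was last at 0.869 ± 0.0547. Spi1, Gfi1 and Irf8, the factors of granulocytes, monocytes and dendritic cells, were the 3 with a higher level in the cultured than in the fresh controls. Ribosomal and small RNA-like rows took 22.4 to 26.9% of FPKM in fresh and at most 0.736% in cultured libraries, and their part in these levels was not tested.

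In culture without DL1, cells from irradiated mice had more Gfi1, Gata1 and Spi1 and less Tal1 than cells from controls: 4 of 10 factors were called, where 29.7% of all genes were. Without Gata1, which passed the filter on low values only through the irradiated group, 3 of 9 were. With DL1 in the culture, 1 factor of 10 was called after irradiation, Gfi1, which rose again, where 3.16% of genes were called. DL1 itself lowered Gfi1, Erg and Irf8 in control cultures (3 of 10, against 26.3% of genes), and in irradiated cultures it lowered Gfi1, Erg, Irf8, Gata1 and Gata2 and raised Spi1 (6 of 10, or 5 of 9 without Gata1, against 41.4%). The shares of factors called were thus near those of all genes in the DL1 comparisons and in culture without DL1. Groups did not overlap for 5 of 10 factors after irradiation without DL1 (38.1% of genes), 6 with DL1 (33.1%), 7 with DL1 in control (48.3%) and 6 with DL1 in irradiated cultures (48.4%). The first and the last of these counts include Gata1, which was separated there by the group that took it past the filter. The change after irradiation differed between cultures with and without DL1 for 0 of 10 factors in limma, where 0.0749% of genes were called. An unadjusted p under 0.05 was reached by 1 of 10 factors (Gata2), beside 1255 of 12011 genes. Comparisons that use the same cultured group share its libraries, so their values are given side by side.

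**Figure D2:**
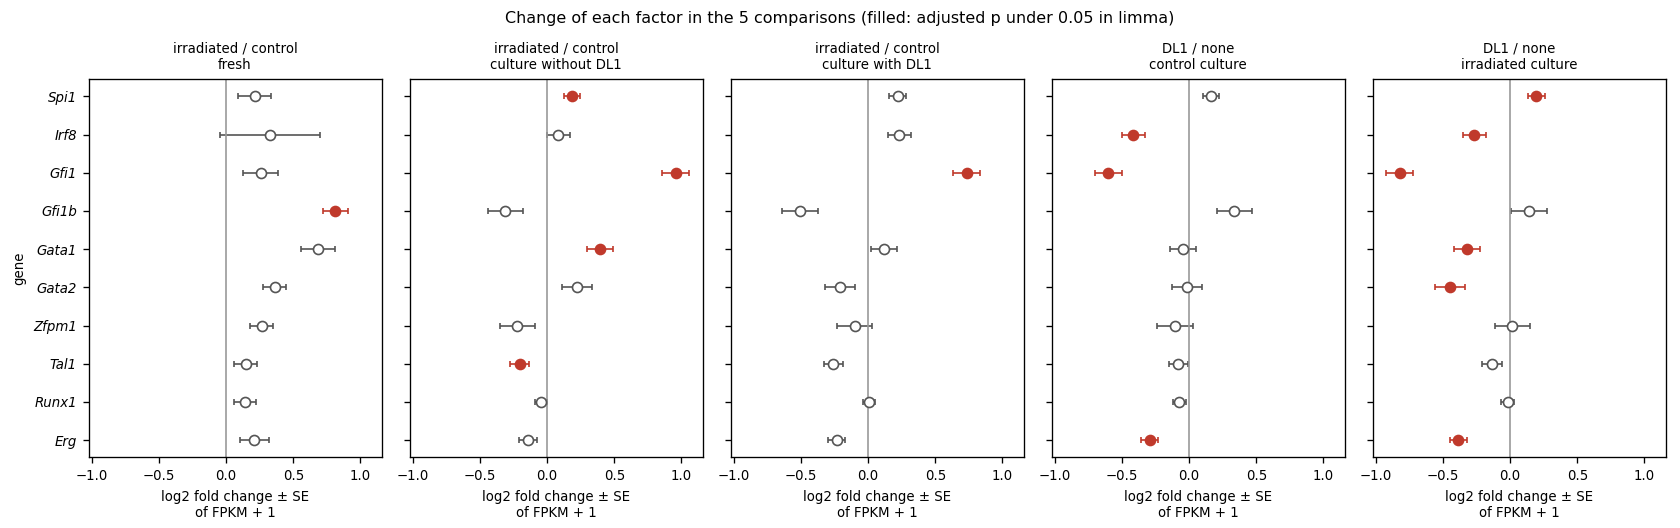
Log2 fold change of FPKM + 1 (x axis) with its standard error for each factor (rows) in the 5 comparisons (panels); filled points are called at an adjusted p under 0.05. Gfi1 lies to the right after irradiation in both kinds of culture (0.96 and 0.73) and to the left with DL1 in both (-0.60 and -0.82).

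Gfi1 was the factor with the largest change in every cultured comparison of irradiation or DL1. Its level was 22.9, 24.3 and 19.7 FPKM in control cultures and 42.9, 50.8 and 39.3 in irradiated ones. With DL1 it was 13.7, 13.9 and 15.3 FPKM in control and 24.9, 26.7 and 22.0 in irradiated cultures. The irradiated libraries lay above their controls in both media, and each DL1 group lay below its counterpart without DL1, so that irradiated cultures with DL1 overlapped in range with plain control cultures. After irradiation Gfi1 rose 1.99-fold without DL1 (0.96 ± 0.10, adjusted p = 1.5e-04) and 1.71-fold with it (0.73 ± 0.10, adjusted p = 0.00448). With DL1 it fell by 0.60 ± 0.10 on the log2 scale in control cultures (adjusted p = 8.71e-04) and by 0.82 ± 0.10 in irradiated ones (adjusted p = 6.04e-05). These 4 calls held under each alternative run. The irradiation changes with and without DL1 differed by -0.22 ± 0.14 (adjusted p = 0.622).

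Gfi1b, whose fresh level rose, was lower in mean after irradiation in culture, in neither medium past the test. It stood at 5.78, 6.41 and 5.32 FPKM in control and 3.42, 4.56 and 5.77 in irradiated cultures. With DL1 the values were 8.04, 7.43 and 7.39 FPKM in control and 4.49, 4.92 and 5.85 in irradiated cultures. The groups overlapped without DL1 (-0.31 ± 0.13, adjusted p = 0.0946) and did not overlap with it (-0.51 ± 0.13, adjusted p = 0.0642). Without irradiated replicate 3 the first of these was called (adjusted p = 0.00897), and the second was called with only its 2 groups in the fit (adjusted p = 0.0176) or after rescaling without ribosomal and small RNA-like rows (adjusted p = 0.0493). In control cultures all 3 libraries with DL1 lay above those without it (0.34 ± 0.13, adjusted p = 0.0813; with only those 2 groups in the fit 0.00919).

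Spi1 was the most abundant factor in every cultured group. It had 145, 147 and 165 FPKM in control and 186, 159 and 175 in irradiated cultures, where it rose 1.14-fold although the groups overlapped (0.19 ± 0.061, adjusted p = 0.0397). With DL1 it had 167, 173 and 171 FPKM in control and 200, 198 and 196 in irradiated cultures. That second pair of groups did not overlap but was not called (0.22 ± 0.061, adjusted p = 0.0811; with only its 2 groups in the fit 0.00932). DL1 raised Spi1 in irradiated cultures by 0.20 ± 0.061 (adjusted p = 0.0237), against 0.16 ± 0.061 in control cultures (adjusted p = 0.0725). The 2 calls were lost without several single libraries, the first without control replicate 1 or 2 or irradiated replicate 1 or 3 (adjusted p from 0.0626 to 0.143), with no filter (0.0641) and with only those 2 groups in the fit (0.147). The second was lost without irradiated replicate 2 or irradiated replicate 1 or 2 with DL1 (0.0583 to 0.104), with only those 2 groups in the fit (0.0595) and with median-ratio scaling (0.102).

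Irf8 was lower in cultures with DL1. Without DL1 it had 26.8, 23.4 and 28.1 FPKM in control and 30.9, 24.6 and 27.7 in irradiated cultures, which overlapped (0.08 ± 0.086, adjusted p = 0.501). With DL1 it had 18.9, 20.9 and 18.1 FPKM in control and 22.1, 23.6 and 22.8 in irradiated cultures. DL1 groups lay below their counterparts, and Irf8 fell by 0.42 ± 0.086 in control (adjusted p = 0.00348) and by 0.27 ± 0.086 in irradiated cultures (adjusted p = 0.0264). The first call held under each alternative, and the second was lost without irradiated replicate 1 (adjusted p = 0.107) or irradiated replicate 1 or 3 with DL1 (0.0778 and 0.0623). The macrophage marker sum was also lower with DL1, from 237 to 374 FPKM in control cultures and 129 to 149 with DL1. In irradiated cultures it was 475 to 739 without and 184 to 199 with DL1. After irradiation without DL1, where Irf8 overlapped between the groups, this sum was higher without overlap. Its part in the fall of Irf8 was not tested.

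Gata1 was near the lower limit of measurement in culture, and it passed the filter of a mean of 1 FPKM over the 12 libraries only through the irradiated group without DL1. It was at 0.913, 0.885 and 0.807 FPKM in control and 1.32, 1.34 and 1.73 in irradiated cultures. With DL1 it was at 0.749, 0.877 and 0.799 FPKM in control and 1.20, 0.873 and 0.828 in irradiated cultures. The irradiated group without DL1 lay above all 3 others. Both calls of Gata1 compare the group through which it entered the tests. They were a rise after irradiation of 0.39 ± 0.096 (adjusted p = 0.0108) and a fall with DL1 of 0.32 ± 0.096 in irradiated cultures (adjusted p = 0.0179). The fall was lost with only its 2 groups in the fit (adjusted p = 0.0714) and without irradiated replicate 2 or 3 with DL1 (0.0585 and 0.0686). Leaving out any of the 3 irradiated libraries without DL1 took Gata1 under the filter, and with no filter both calls held. The change after irradiation with DL1 was 0.12 ± 0.096 (adjusted p = 0.542), and the difference between the changes was -0.28 ± 0.14 (adjusted p = 0.498).

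Gata2 also fell with DL1 in irradiated cultures, from a higher level. It was at 13.1, 13.6 and 11.6 FPKM in control and 12.5, 15.9 and 17.2 in irradiated cultures, which overlapped (0.22 ± 0.11, adjusted p = 0.153; without irradiated replicate 1, 0.0310). With DL1 it was at 11.8, 12.8 and 13.1 FPKM in control and 9.41, 10.6 and 12.3 in irradiated cultures. The irradiated libraries with DL1 lay below those without it, and Gata2 fell by 0.45 ± 0.11 (adjusted p = 0.00710), a call that held under each alternative, whereas in control cultures the change with DL1 was -0.02 ± 0.11 (adjusted p = 0.928). The irradiation changes in the 2 media had opposite signs and differed by -0.43 ± 0.16, which did not pass the test (adjusted p = 0.362). The cofactor gene Zfpm1 lay between 4.22 and 6.94 FPKM in all 12 cultures and was called in no comparison. The 7 mast cell and basophil markers summed to 82.0 to 96.7 FPKM in control and 139 to 156 in irradiated cultures, and to 95.5 to 174 and 135 to 157 with DL1. The 6 megakaryocyte markers summed to 74.5 to 102 and 188 to 266 without DL1, and to 87.9 to 91.7 and 54.1 to 75.2 with it. Of these, 3 passed the filter, and all 6 are also on the list of megakaryocyte targets given below. Without DL1, the marker Pf4 had means of 68.9 FPKM in control and 177 in irradiated cultures, and Ppbp 16.7 and 51.2. The sum of the 6 erythroid markers went the other way after irradiation without DL1, from 29.2 to 34.9 FPKM in control and 9.26 to 23.0 in irradiated cultures. Only 1 of these 6 passed the filter of a mean of 1 FPKM over the cultures, so the sum does not describe 6 markers moving together. With DL1 they summed to 7.16 to 14.7 and 3.27 to 8.90. Among them, Slc4a1 was at 0 throughout each cultured group except control with DL1. The part of these cells in the levels of Gata1 and Gata2 was not tested.

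Erg, an ETS factor needed by stem cells, was lower with DL1. It stood at 23.8, 24.6 and 22.8 FPKM in control and 20.3, 22.2 and 21.6 in irradiated cultures, and with DL1 at 19.8, 19.9 and 17.7 in control and 15.4, 17.7 and 15.3 in irradiated ones. DL1 groups lay below their counterparts without overlap, and Erg fell by 0.30 ± 0.066 in control (adjusted p = 0.00574) and by 0.39 ± 0.066 in irradiated cultures (adjusted p = 6.84e-04), under each alternative. Irradiated cultures were below controls in mean in both media, by amounts that were not called (-0.15 ± 0.066, adjusted p = 0.117, and -0.24 ± 0.066, adjusted p = 0.0818).

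Tal1, the basic helix-loop-helix partner of GATA factors, was lower in irradiated cultures. It had 14.6, 15.1 and 13.7 FPKM in control and 11.2, 12.7 and 13.5 in irradiated cultures, and with DL1 14.4, 13.1 and 13.4 in control and 10.9, 10.8 and 12.1 in irradiated ones. Neither pair of groups overlapped. The fall without DL1 was called narrowly (-0.20 ± 0.072, adjusted p = 0.0498), and that with DL1 was not called (-0.26 ± 0.072, adjusted p = 0.0780; with only its 2 groups in the fit 0.0422). Median-ratio scaling took the first call away (adjusted p = 0.0754), as did a pseudocount of 0.1 (0.0501), no filter (0.0812), the replicate block (0.0675), a fit of only those 2 groups (0.114), and leaving out control replicate 1 or 2 or irradiated replicate 1 or 2 (0.0844 to 0.193). Runx1, which encodes the DNA-binding subunit of core binding factor, stayed between 16.6 and 18.6 FPKM in all 12 cultures and was called in no comparison.

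Ratios within a library do not depend on the scaling between libraries and are given as descriptions without a test. Gfi1 over Gfi1b was 3.97, 3.79 and 3.70 in control cultures and 12.6, 11.1 and 6.80 in irradiated ones. With DL1 it was 1.70, 1.88 and 2.08 in control and 5.54, 5.43 and 3.75 in irradiated cultures. In each medium the irradiated libraries lay above the controls, and each DL1 group lay below its counterpart. In fresh cells the ratio was 1.11, 0.787 and 0.913 in controls and 0.785, 0.620 and 0.488 in irradiated pools, so that there the irradiated pools lay below. Gfi1 over Irf8 was 0.700 to 1.04 in control and 1.39 to 2.07 in irradiated cultures, and 0.667 to 0.849 and 0.966 to 1.13 with DL1. Gata2 over Spi1 was 0.653 to 0.927 in fresh controls and 0.869 to 1.01 in fresh irradiated pools, but 0.1 or less in the 12 cultures, and it was lowest in irradiated cultures with DL1 (0.0471 to 0.0629). Gata1 over Gata2 was 0.0650 to 0.0698 in control and 0.0841 to 0.106 in irradiated cultures, with Gata1 near the lower limit of measurement. With a pseudocount of 1 added to both genes these groups overlapped (0.129 to 0.143 and 0.138 to 0.172). With DL1 the ratio without pseudocount was 0.0610 to 0.0683 in control and 0.0673 to 0.127 in irradiated cultures, which overlapped.

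**Figure D3:**
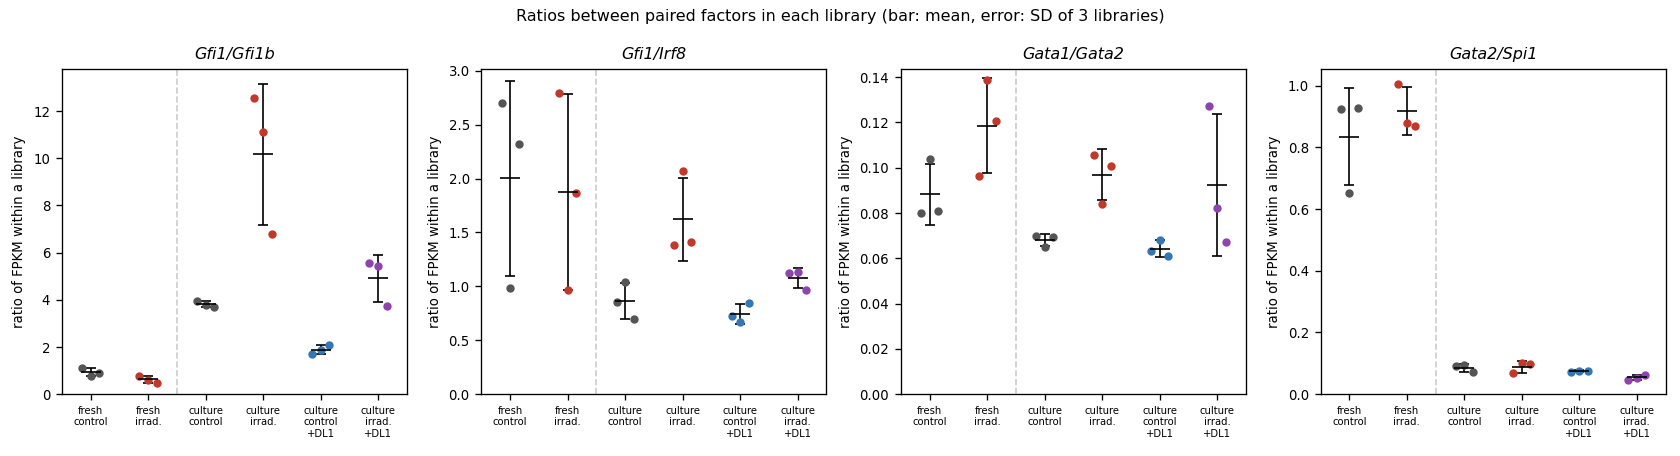
Ratio of FPKM of 2 factors within each library (points) of the 6 groups, with the mean and SD of 3 libraries, for 4 pairs of factors. Gfi1 over Gfi1b lies between 6.80 and 12.6 in irradiated and between 3.70 and 3.97 in control cultures, while Gata2 over Spi1 is at most 0.1 in all cultures.

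Genes that PU.1 activates in myeloid cells, taken from a list of 17 that holds receptors, phagocyte oxidase subunits and lysozyme, were not called in fresh cells, where 0 of 15 tested passed in limma and 0 had an unadjusted p under 0.05. In culture without DL1, 12 of 17 rose after irradiation, against 13.8% of all genes, and 0 fell. The Fc receptor gene Fcgr3 went from 152 ± 17.7 to 269 ± 46.1 FPKM (0.81 ± 0.13), and the receptor gene Csf2ra from 42.8 ± 6.52 to 64.0 ± 7.09 (0.57 ± 0.10). The count was 6 without control replicate 2, 7 without irradiated replicate 1, and 7 with no filter or with only those 2 groups in the fit. With DL1, 4 of 17 rose after irradiation (2.51% of all genes), a count of 1 without control replicate 1, of 0 without control replicate 3 or irradiated replicate 1 or 2, and of 12 with only those 2 groups in the fit. DL1 lowered 11 of 17 in control and 14 of 17 in irradiated cultures, against 12.3 and 17% of all genes, and raised 1 in each, against 14 and 24.4%. The lysozyme gene Lyz2 fell by 2.27 ± 0.18 in control cultures, from 1982 ± 359 to 412 ± 87.6 FPKM. Median changes of the list were 0.48 after irradiation without DL1, 0.42 with DL1, and -0.69 and -0.66 with DL1 in control and irradiated cultures, beside -0.03, -0.02, 0.04 and 0.06 over all genes. Neutrophil marker sums moved with them, from 1198 to 1299 FPKM in control, 2001 to 3243 in irradiated, 700 to 791 in control with DL1 and 1237 to 1781 in irradiated cultures with DL1, and their part was not tested.

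Other myeloid transcription factors included the C/EBP genes, which drive granulocyte formation. Of 11 tested, 2 rose after irradiation without DL1, near the 13.8% of all genes that did, Cebpe from 13.1 ± 0.158 to 32.2 ± 5.45 FPKM (1.22 ± 0.14) and Cebpa from 51.7 ± 3.15 to 76.6 ± 3.36 (0.56 ± 0.083). With DL1 in the culture 3 rose after irradiation, Cebpe, Cebpd and Cebpa, against 2.51% of all genes. The count was 1 without control replicate 1 or 3 and with no filter, and 0 without irradiated replicate 2. DL1 in control cultures raised 2, the most by p being the dendritic cell factor Batf3 (1.47 ± 0.20), and lowered 6, against 14 and 12.3% of all genes, the lower count being 3 without control replicate 1 or control replicate 1 or 3 with DL1. In fresh cells Jun rose (1.85 ± 0.15, adjusted p = 0.00359), 1 of 11 and 0 with no filter.

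Targets of the GATA factors were followed in 3 lists. Of 10 megakaryocyte genes tested in fresh cells, 1 rose, Selp, which encodes P-selectin (11.5 ± 2.28 to 31.0 ± 2.84 FPKM, 1.36 ± 0.13, adjusted p = 0.00766), a call lost without irradiated replicate 1 and with no filter. The list had a median change of 0.52, beside a median of 0.0084 over all genes. In limma, 9 of 10 had an unadjusted p under 0.05, beside 885 of 12890 genes in all. In direction, 9 of the 10 were higher and 1 was lower. The gene that missed that limit was Ppbp, which was higher, so the lower gene was among the 9 under it. In culture without DL1, 3 of 6 tested rose after irradiation, against 13.8% of all genes: Itga2b, which encodes the platelet integrin subunit, and the platelet chemokine genes Pf4 and Ppbp. DL1 raised Itga2b in both kinds of culture (by 1.73 ± 0.099 in control) and lowered 3 of 6 in irradiated cultures, against 17% of all genes, Pf4 and Ppbp among them (-1.79 ± 0.14 and -2.32 ± 0.20). Of 9 mast cell and basophil genes, 4 rose after irradiation without DL1, against the same 13.8%, among them Hdc, which makes histamine (8.35 ± 0.397 to 16.5 ± 1.43 FPKM), and Fcer1a (1.39 ± 0.32), and 0 fell. With DL1 in control cultures the mast cell protease gene Cpa3 rose (1.44 ± 0.23). Of 12 erythroid genes tested in fresh cells 0 passed in limma, with 3 at an unadjusted p under 0.05. Of 5 tested in culture, 3 rose and 1 fell with DL1 in control cultures, against 14 and 12.3% of all genes; those that rose were Hemgn (0.98 ± 0.14), the carbonic anhydrase gene Car2 and the transferrin receptor gene Tfrc. The 1 that fell was not called without control replicate 3 with DL1. In irradiated cultures DL1 raised 2 and lowered 1, against 24.4 and 17%. The count raised was 1 without irradiated replicate 2 or irradiated replicate 3 with DL1, and the count lowered was 0 without irradiated replicate 1 with DL1. After irradiation 0 rose and 1 fell in each medium, where 1909 genes in all fell without DL1 and 78 with it. The first of these falls was lost without any single control replicate or irradiated replicate 1 or 2, and the second without control replicate 1 or 3 with DL1 or irradiated replicate 1 or 2 with DL1.

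Partners of the stem cell factors in their complexes were called in culture, while in fresh cells 0 of 15 passed in limma, with 2 at an unadjusted p under 0.05. Without DL1, 7 of 13 tested fell after irradiation and 1 rose, against 15.9 and 13.8% of all genes. Cbfa2t3, a corepressor of TAL1 complexes, fell by 0.35 ± 0.056, and Meis1, a stem cell homeobox gene, fell by 0.44 ± 0.085. The lower count was 3 without control replicate 1, 4 without control replicate 2 or 3 or irradiated replicate 2, 4 with median-ratio scaling and 3 with only those 2 groups in the fit. DL1 raised 6 of 13 and lowered 2 in control cultures, against 14 and 12.3% of all genes, and raised 6 and lowered 3 in irradiated ones, against 24.4 and 17%. The first count was 3 without control replicate 3 with DL1. Cbfa2t3 rose by 0.73 ± 0.056 in control and by 0.93 ± 0.056 in irradiated cultures, and the homeobox gene Hhex rose by 0.48 ± 0.051 and 0.54 ± 0.051. Of 17 genes for corepressors that GFI1, GFI1B and FOG1 recruit, 0 rose and 6 fell after irradiation without DL1, against 13.8 and 15.9% of all genes (the histone deacetylase genes Hdac1 and Hdac2 among them), a count of 2 without control replicate 2 or irradiated replicate 1. DL1 in irradiated cultures raised 10 of 17 and lowered 2, against 24.4 and 17% of all genes. The count raised was 6 without irradiated replicate 2, and the count lowered was 1 without irradiated replicate 1 or 3 or any single irradiated replicate with DL1. Of 6 genes that GFI1 represses in textbook accounts, Meis1 and Id1 fell and 0 rose after irradiation without DL1, against 15.9 and 13.8% of all genes. With no filter or only those 2 groups in the fit 1 rose, and the lower count was 1 without control replicate 3 or irradiated replicate 2. With DL1, under which Gfi1 was lower, 3 fell and 1 rose in control cultures, against 12.3 and 14% of all genes, and 2 fell and 1 rose in irradiated cultures, against 17 and 24.4%. The last 2 counts were 4 lower with no filter, 1 lower at a mean of at least 5 FPKM, and 2 higher without irradiated replicate 1.

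**Figure D4:**
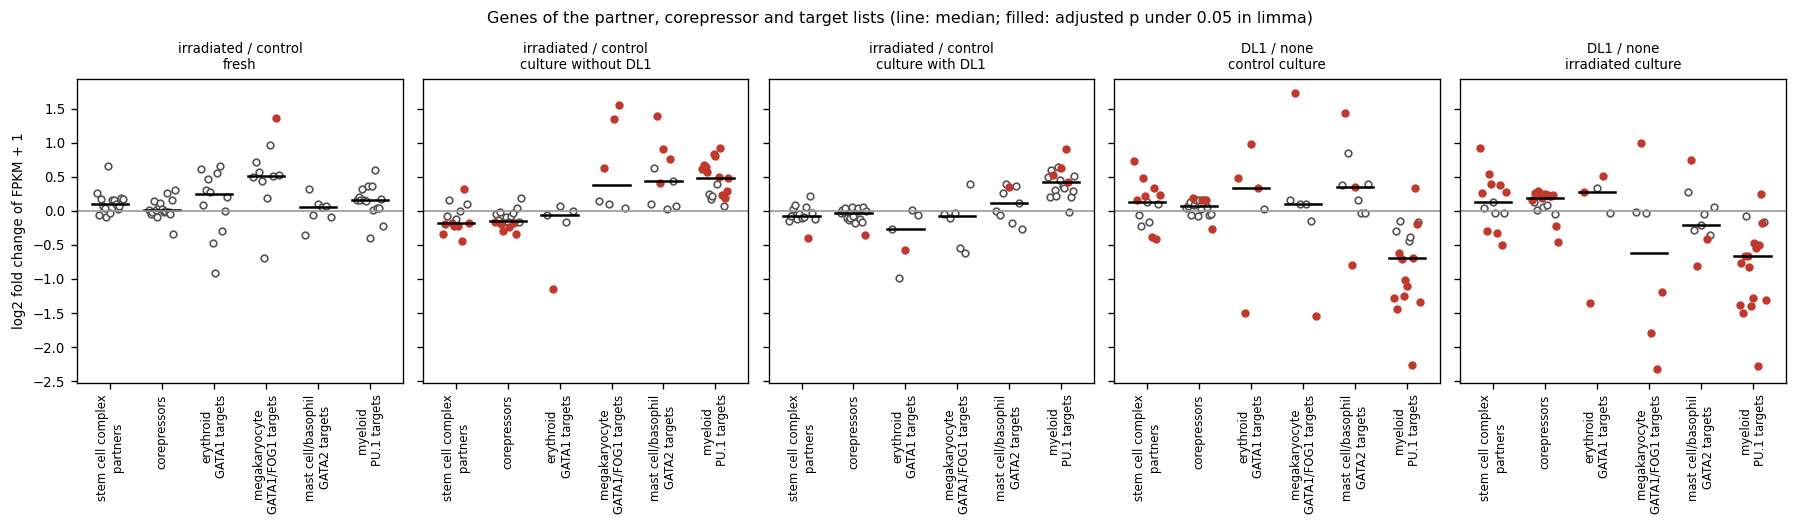
Tested genes from the lists of other genes in the 5 comparisons, with calls at an adjusted p under 0.05. PU.1 targets stand out on the higher side after irradiation without DL1 (12 of 17 called higher) and on the lower side with DL1 (11 and 14 of 17 called lower).

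The genes most like each factor were those with the highest Pearson r of log2(FPKM + 1) over the 12 cultured libraries, a description over libraries that share 4 groups. Gfi1 was followed most closely by Mpo (r = 0.996), the myeloperoxidase gene of early granulocytes, then by Rhou (0.994) and Sptlc2 (0.991). For Irf8 the closest were Dram1 (0.981), the monocyte chemokine receptor gene Cx3cr1 (0.973) and Nupr1 (0.972). Erg was closest to Tom1l1 (0.970) and Dab2ip (0.968), and Spi1 to Taldo1 (0.954). Among the factors themselves, the strongest r over these libraries were -0.88 for Spi1 with Tal1, -0.87 for Spi1 with Erg and 0.82 for Gfi1 with Gata1. Gfi1 and Gfi1b had an r of -0.80.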

How the data were processed

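RNA from 18 libraries of LSK cells was sequenced, and the authors deposited 2 tables of FPKM, 1 for the fresh and 1 for the cultured libraries. TopHat 1.4.1, Cufflinks 1.3.0 and Cuffdiff (no version given) are named in the submitters' processing notes, which also name hg19, a human build, for these mouse samples. The annotation and any scaling between libraries are not given in the sources used here. FPKM carry no read counts, so no count model was used. Relative depth was read from the smallest steps of low values. Of 25629 rows in each table, 25601 were left after the row with the higher mean was kept for repeated names.

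The tests used limma 3.58.1 under R 4.3.3 with its trend option, on log2(FPKM + 1) of genes averaging at least 1 FPKM in a table (12890 fresh, 12011 cultured). The 4 cultured groups shared 1 fit, and p-values were adjusted over all genes tested. On simulated data with 12890 genes in the fresh layout, 81% of genes changed by 1 on the log2 scale and 35% of those changed by 0.5 were recovered. With 12011 genes in the layout of cultures without DL1, 97 and 83% were. The 10 factors and the 8 lists of other genes were chosen with earlier results of these data known. From each list the genes named are among the 3 with the smallest p in a comparison. For each factor, the genes called like it were the 3 with the highest Pearson r. Alternatives were pseudocounts of 0.1 and 5, no filter, a mean of at least 5 FPKM, 2 other scalings, a replicate block, fits of the 2 groups compared, and leaving out each library. Replicate numbers entered only through the replicate block, an alternative fit over all groups of a table. For DL1 in irradiated cultures, deviations of same-numbered libraries had r of 0.235, 0.145 and 0.355, all above 0.1. Those of different numbers had r of -0.25 to 0.044. The labels name no shared source, and the fit without the block stayed the main one. Promoter sequences came from RefSeq (GRCm38.p6), which held 9 of the 10 factors, and no other use was made of coordinates.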

Additional observations from a re-analysis of the deposited data

Results flagged for a closer look

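Within culture, the change after irradiation differed between media for 2 platelet chemokine genes among the GATA1 and FOG1 targets, by a test of the difference itself in limma. Pf4 went from 68.9 ± 10.6 to 177 ± 28.9 FPKM without DL1 and from 73.2 ± 4.13 to 50.6 ± 9.45 with it, a difference of -1.89 (adjusted p = 0.00950). Ppbp went from 16.7 ± 3.90 to 51.2 ± 11.4 FPKM without DL1 and from 14.8 ± 2.15 to 9.37 ± 1.96 with it, a difference of -2.17 (adjusted p = 0.0142). The number of these megakaryocyte genes called was 0 without control replicate 1, irradiated replicate 2 or irradiated replicate 2 with DL1, and 1 without control replicate 2 or 3 with DL1 or irradiated replicate 1 with DL1. With no filter or with the replicate block it was 1. Gfi1b, Zfpm1 and Erg had irradiated libraries wholly above the controls in fresh cells and wholly below them in a culture. How many of all genes did so was not counted, so this is not shown to be particular to the factors. Of these changes only the fresh one of Gfi1b was called. The fresh groups of Erg were barely apart (61.48 against 61.47 FPKM). For Gfi1b the cultured change with DL1 minus the fresh change was -1.32, for Zfpm1 that without DL1 minus the fresh change was -0.49, and for Erg the differences were -0.35 without and -0.45 with DL1. These differences were not tested, because the fresh and cultured tables were normalized separately.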

How the results depend on the processing

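Of 864 results of single factors under an alternative, 803 kept their direction and side of the threshold, 33 lost a call, 11 gained 1 and 17 changed sign. The number of factors called in fresh cells went from 1 to 0 with no filter and with the replicate block, and ranged from 0 to 1 when single libraries were left out. After irradiation in culture without DL1 it went from 4 to 2 with no filter or with only the 2 groups compared, and ranged from 2 to 4 without single libraries. With DL1 it went from 1 to 2 after rescaling without ribosomal and small RNA-like rows and to 5 with only the 2 groups compared. In the other comparisons it stayed within 1.5 times its value, with 3 to 4, 4 to 6 and 0 factors called. Every change of sign was in a result that was not called. For Zfpm1 with DL1 in irradiated cultures the change became -0.031 with median-ratio scaling and -0.0060 after rescaling. Without single libraries it ranged from -0.18 to 0.12. In the same way, the change after irradiation ranged from -0.049 to 0.70 for Irf8 in fresh cells, and in cultures with DL1 from -0.0093 to 0.018 for Runx1 and from -0.30 to 0.0029 for Zfpm1. The change with DL1 ranged from -0.079 to 0.027 for Gata2 in control cultures, and in irradiated ones from -0.018 to 0.29 for Gfi1b and from -0.049 to 0.012 for Runx1. The difference between the irradiation changes ranged from -0.027 to 0.086 for Spi1, from -0.12 to 4.71e-04 for Tal1 and from -0.076 to 0.23 for Zfpm1. The cause was not tested. Asking for a mean of 5 FPKM took Gata1 of the cultures out of the tests.

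The main fit did not take the replicate numbers as pairs in any comparison. For DL1 in irradiated cultures the replicate block changed no call of a factor. Deviations of same-numbered fresh libraries had r from 0.057 to 0.211 (median 0.12), and those of different numbers from -0.22 to 0.074 (median -0.070). Over all pairs of cultured groups these were -0.17 to 0.35 (median -0.023) and -0.43 to 0.33 (median -0.0073). With the replicate block, 0, 3, 1, 3, 6 and 0 factors were called in the 6 comparisons, in the order fresh, culture without DL1, culture with DL1, DL1 in control, DL1 in irradiated and the difference, and 9, 3415, 352, 3195, 4939 and 3 genes in all, against 13, 3568, 380, 3156, 4973 and 9 without it.

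Over all genes, scaling moved the balance of higher and lower calls. After irradiation without DL1 it was 1659 higher and 1909 lower, and 2002 and 1477 with median-ratio scaling. With DL1 in control cultures it went from 1677 and 1479 to 1254 and 1716, and in irradiated cultures from 2932 and 2041 to 2028 and 2460. In fresh cells, rescaling without ribosomal and small RNA-like rows moved it from 9 and 4 to 12 and 11. Genes called in fresh cells numbered 4 with no filter, and those called after irradiation numbered 1656 without and 999 with DL1 when only those 2 groups were in the fit, and 222 with DL1 and no filter. The difference called 18 genes with a pseudocount of 5, 3 with no filter and 5 with a mean of at least 5 FPKM. Without single libraries the counts ranged from 5 to 15, 1880 to 4695, 104 to 285, 2214 to 2918, 3854 to 6002 and 0 to 191. FPKM without counts give no interval for low genes such as Gata1.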
